A study of Gossypium hirsutum with 9 samples.

Results

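The spotted cDNA probe 28K_256_D11 was described on 9 dual-dye arrays of cotton ovules. It was chosen because the study annotates it as an auxin response transcription factor (ARF7), and it is 1 of 29183 different probes on the array. Its name rests on that annotation alone, because the sequence of the spotted cDNA was not used here. RNA of ovule and fiber mixtures was taken from field-grown Upland cotton (Gossypium hirsutum) 1 day before anthesis (-1 DPA, days post anthesis), on the day of anthesis (0 DPA) and 1 day after it (1 DPA). XinWX, the lintless-fuzzless mutant, was set against XinFLM, the fuzzless-linted mutant. The methods call the lines isogenic. By the paper's introduction XinFLM was isolated from XinWX and is a dominant mutant at a single locus for lint. Both lines thus lack fuzz, and XinFLM alone forms lint. Each array compared both lines directly at 1 stage, and there were 3 arrays per stage. On replicates 1 and 3 XinWX carried Cy3 and XinFLM carried Cy5, and on replicate 2 the dyes were interchanged. The series text counts 3 biological replicates with the dye swap among them, whereas the methods speak of 2 and a swap. Part of the spread between the 3 arrays behind the p-values and standard deviations (SD) may therefore be technical. Which arrays of a stage share RNA is not stated, and the agreement between arrays given below was not used to decide it.

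Auxin response factors are transcription factors that bind auxin response elements in promoters. When auxin is low, Aux/IAA repressors bind to them and hold their target genes down, and auxin leads to the breakdown of these repressors through the TIR1/AFB receptors. In Arabidopsis, ARF7 belongs to the activating members of the family and is known for its part in lateral root formation and in tropic growth. In cotton, each lint or fuzz fiber is a single outgrown cell of the ovule epidermis, and auxin is known to promote the initiation of these cells. GH3 proteins, of which many genes are early targets of auxin in Arabidopsis, join amino acids to auxin or to jasmonic acid and so adjust the amount of free hormone.

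The study's supplementary list gives a primer pair for real-time PCR of the transcript that it annotates as ARF7 under this probe's name. The pair is shown because it is the sequence by which the transcript can be found again. No capitals are used, since no part of a primer stands out.
ARF7 forward primer: gagatattgacacagagttg
ARF7 reverse primer: tgaacatccagtcttgaa
The forward primer has 20 bases, of which 8 are G or C, and the reverse primer has 18 bases, of which 7 are G or C. A spotted cDNA can also bind transcripts of close relatives, such as the copies of the gene from both parental genomes of this tetraploid species, so the values below are those of the probe.

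The ARF7 probe gave a higher signal in XinWX than in XinFLM on 9 of 9 arrays, as did 6.94% of the 18150 probes kept on every array, and 6.2% of them were higher in XinFLM on 9 of 9. It lay at 1 spot per array and was above its local background on each of them. The weakest value was that of XinFLM on replicate 3 of 1 DPA. There the spot had 720 units with an SD over its pixels of 961.1 units, and 51.0% of probes were dimmer. The background-subtracted intensity ranged from 720 to 6182 scanner units over both channels, the spot was 4.17 to 50.9 times as bright as its local background, and none of the 18 channel values was flagged, saturated or under the limit of 400 units below which the methods call a spot faint. The correlation of log ratios across probes, which are no replicates of each other, was 0.796 to 0.891 between replicates 1 and 2 of a stage, 0.511 to 0.647 between replicates 1 and 3, and 0.470 to 0.607 between replicates 2 and 3. The array of replicate 3 at 1 DPA stood apart, with a median intensity over all probes of 1664 units for XinWX and 694 units for XinFLM, against medians of 807.5 to 1577 units in both channels of the other arrays.

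Before normalization, the ARF7 probe at -1 DPA had background-subtracted intensities of 5916, 6182 and 3446 units in XinWX on replicates 1, 2 and 3, against 3492, 3358 and 2057 units in XinFLM. The groups overlapped, since XinWX on replicate 3 was below XinFLM on replicate 1, but within each array XinWX was the brighter line. At 0 DPA the intensities were 3757, 3811 and 3397 units in XinWX, against 3290, 2880 and 2992 units in XinFLM. All XinWX values at this stage lay above all XinFLM values, by a small margin. At 1 DPA the probe had 5592, 3326 and 3933 units in XinWX, against 2734, 1867 and 720 units in XinFLM. Again the groups did not overlap, and the lowest of all 18 values was that of XinFLM on replicate 3, the array with the dim XinFLM channel.

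After normalization within and across arrays, levels are log2 intensities of this probe. At -1 DPA XinWX had 12.17, 12.18 and 12.01 and XinFLM had 11.45, 11.46 and 11.25. At 0 DPA XinWX had 11.75, 11.87 and 11.84 and XinFLM had 11.47, 11.45 and 11.64. At 1 DPA XinWX had 12.87, 12.15 and 11.44 and XinFLM had 11.79, 11.45 and 10.31. The 3 arrays of -1 DPA and of 0 DPA lay close together in each line and the lines did not overlap there, whereas the arrays of 1 DPA were spread over more than a log2 unit in both lines and the lines overlapped. On each array of 1 DPA, however, both lines moved up or down together in these normalized levels, so that the difference within an array varied less than the level. Before normalization they did not. From replicate 2 to 3 XinWX rose from 3326 to 3933 units, whereas XinFLM fell from 1867 to 720 units.

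**Figure D1:**
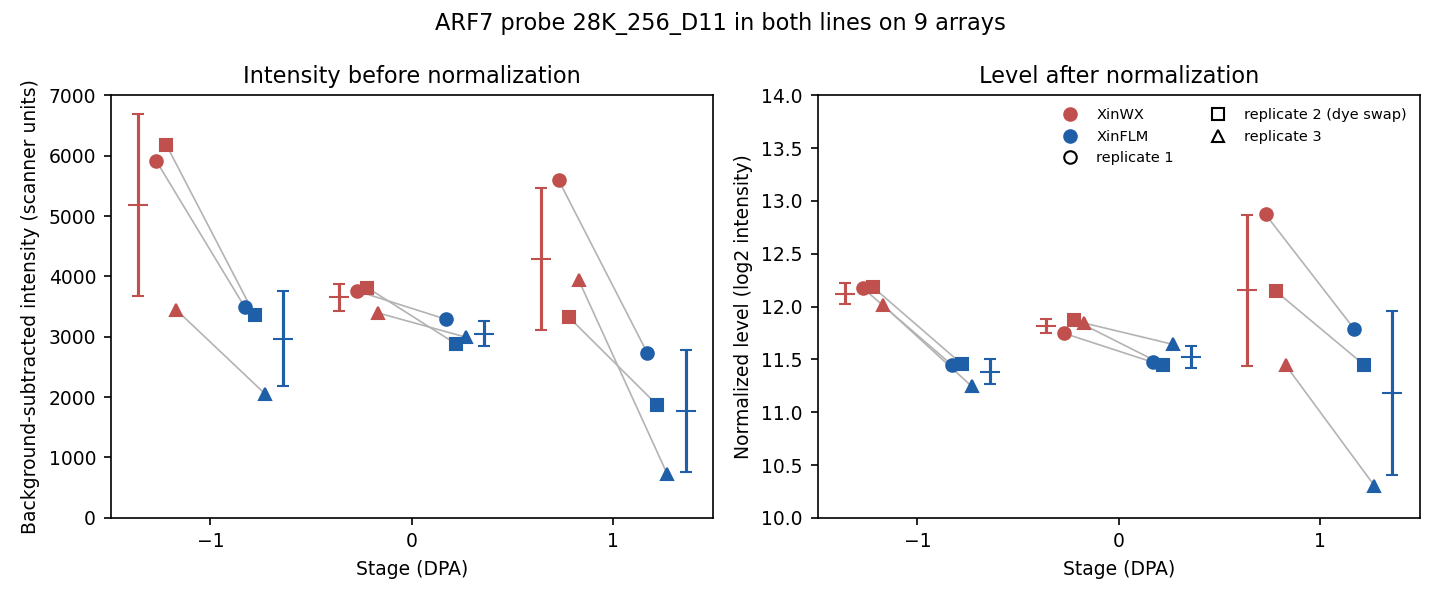
Intensity of the ARF7 probe in XinWX (red) and XinFLM (blue) at -1, 0 and 1 DPA, background-subtracted in scanner units on the left and as the normalized log2 intensity on the right. Each symbol is 1 channel of 1 array, gray lines join both lines on the same array, and bars give the mean ± SD of 3 arrays. On each of the 9 arrays XinWX is above XinFLM, and the arrays of 1 DPA are the most spread, with XinFLM of replicate 3 lowest at 720 units and 10.31 on the log2 scale.

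Ordered by mean level, XinWX at 1 DPA came first (12.15 ± 0.71, SD, n = 3 arrays), followed by XinWX at -1 DPA (12.12 ± 0.10), XinWX at 0 DPA (11.82 ± 0.07), XinFLM at 0 DPA (11.52 ± 0.10), XinFLM at -1 DPA (11.38 ± 0.12) and XinFLM at 1 DPA (11.18 ± 0.78). The 3 stages of XinWX thus stood above the 3 stages of XinFLM, and by these means the stages ran in opposite order in the lines. XinWX at -1 DPA and XinWX at 0 DPA had ranges that did not overlap, with means 0.30 apart, and so had XinWX at 0 DPA and XinFLM at 0 DPA, also 0.30 apart. XinWX at 1 DPA and at -1 DPA were only 0.03 apart with overlapping ranges. The neighbors within XinFLM, 0.14 and 0.20 apart, overlapped as well. Without replicate 3 the means at 1 DPA were 12.51 in XinWX and 11.62 in XinFLM, which puts XinFLM at 1 DPA above its other stages.

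The difference between the lines is given as the log2 ratio of XinWX over XinFLM on each array after loess normalization. At -1 DPA the ARF7 ratios were 0.72, 0.73 and 0.77 on replicates 1, 2 and 3. At 0 DPA they were 0.27, 0.42 and 0.20, and at 1 DPA 1.08, 0.70 and 1.14. The ratios of 0 DPA lay below those of both other stages without overlap, and the arrays of -1 DPA agreed to within a few hundredths. Replicate 2, on which XinWX carried Cy5 in place of Cy3, had the middle ratio at -1 DPA, the highest at 0 DPA and the lowest at 1 DPA. In the fit with a dye term, the arrays with XinWX on Cy3 exceeded the swapped arrays by 0.08 (adjusted p = 0.999 in limma).

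At -1 DPA ARF7 was 1.67-fold higher in XinWX than in XinFLM (log2 0.74 ± 0.02, SD, n = 3 arrays, 95% interval 0.48 to 1.00, adjusted p = 0.000638 in limma). At 1 DPA it was 1.96-fold higher in XinWX (log2 0.97 ± 0.24, interval 0.71 to 1.23, adjusted p = 5.4e-05). At both stages it passed the false discovery rate (FDR) of 0.05 but stayed under the fold change of 2 that the methods also ask for. Of the 23170 probes tested at -1 DPA, 24.8% passed the FDR (12.9% with a higher level in XinWX) and 3.32% passed both limits. Of the 22077 probes tested at 1 DPA, 24.3% passed the FDR (12.1% higher in XinWX) and 3.96% passed both. A pass at the FDR was therefore common among probes at these stages. With the swapped array first averaged with replicate 1, the ARF7 ratio at -1 DPA was 0.75 (adjusted p = 0.0146 in limma). With the swapped array averaged with replicate 3 it was 0.73 (adjusted p = 0.000762).

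At 0 DPA the ARF7 ratio was 1.23-fold (log2 0.30 ± 0.11, SD, n = 3 arrays, interval 0.04 to 0.56), with XinWX higher on 3 of 3 arrays, and it did not pass (adjusted p = 0.166 in limma, unadjusted p = 0.0269). At this stage 7.69% of 22654 probes passed the FDR, 3.5% higher in XinWX, and 1.48% passed both limits. With scale normalization between arrays the ratio at 0 DPA was 0.37 and passed (adjusted p = 0.0436 in limma). In that setting 4024 of the 22654 probes passed the FDR, against 1742 in the main fit.

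**Figure D2:**
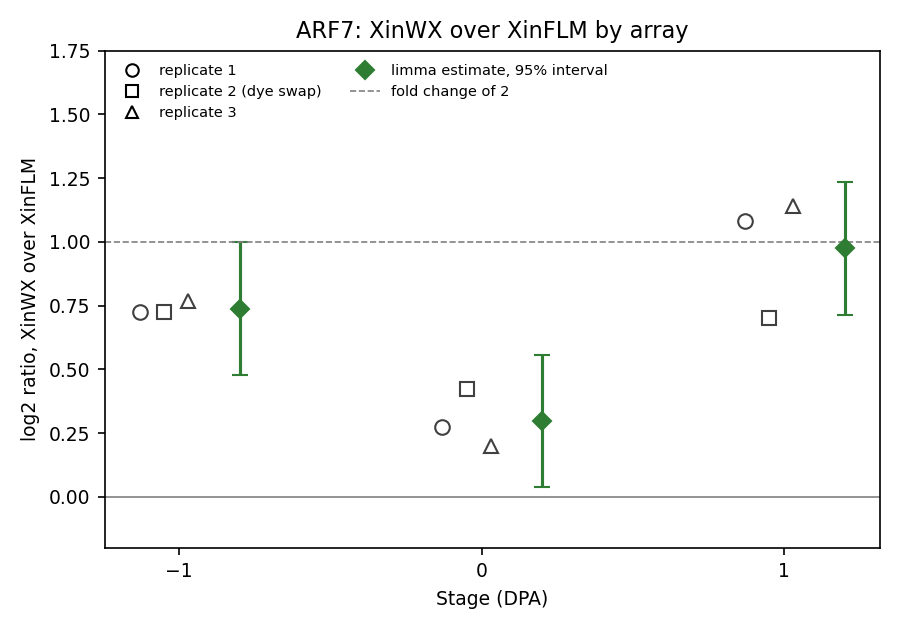
Log2 ratio of XinWX over XinFLM for the ARF7 probe by stage (DPA), with 1 open symbol per array and the limma estimate with its 95% interval as a filled diamond. The solid line marks equal levels and the dashed line a fold change of 2. The estimates are 0.74, 0.30 and 0.97 at -1, 0 and 1 DPA, and all 9 arrays lie above 0.

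Among all probes tested, the ARF7 ratio was higher than that of 95.6% at -1 DPA, 88.9% at 0 DPA and 98.1% at 1 DPA. A higher ratio was found for 1029, 2519 and 428 probes at -1, 0 and 1 DPA. The log ratios of all probes were also least spread at 0 DPA, with an SD over probes of 0.43, 0.32 and 0.48 at -1, 0 and 1 DPA. In units of these SDs the ARF7 ratio was 1.72, 0.945 and 2.02 at -1, 0 and 1 DPA. The ratio was thus smallest at 0 DPA by this measure too.

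**Figure D3:**
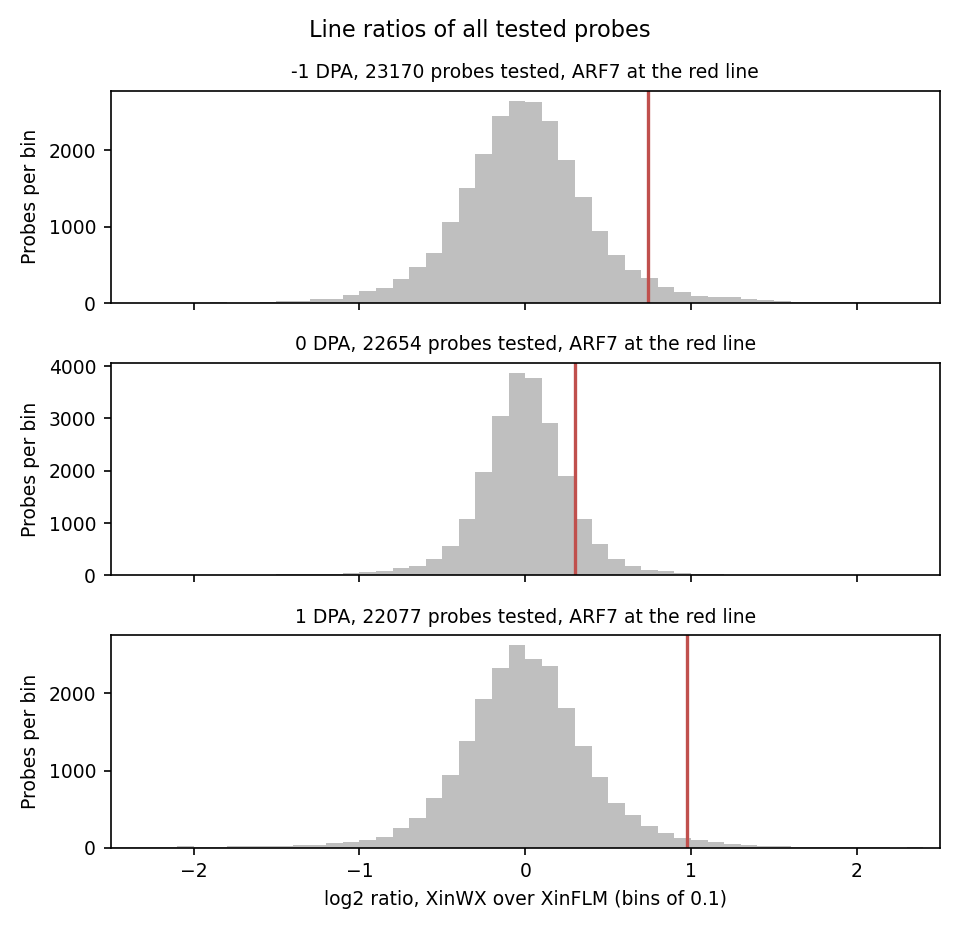
Number of probes by log2 ratio of XinWX over XinFLM in bins of 0.1, at -1, 0 and 1 DPA from top to bottom, with the ARF7 ratio as a red line (probes beyond the axis are not drawn). The line lies in the upper tail at -1 and 1 DPA, above 95.6% and 98.1% of the probes, and closer to the bulk at 0 DPA, above 88.9%.

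Over all 9 arrays, the mean log2 ratio of ARF7 was 0.67 ± 0.33 (SD), which is 1.59-fold higher in XinWX. The exact two-sided sign-flip permutation test over the 9 arrays gave p = 0.00391, the smallest it can give. Every probe with the same sign on all 9 arrays gets this p, and the test takes the arrays as independent, which the dye swap may not allow. All ratios of 0 DPA lay below all ratios of both other stages for 5.81% of the 18150 probes kept on every array. Of the 18150, 192 probes (1.06%) had this and were also higher in XinWX on all 9 arrays, as ARF7 was. Of 20873 probes tested at all 3 stages, 814 (3.9%) passed the FDR higher in XinWX at -1 and 1 DPA but not at 0 DPA, as ARF7 did, and 276 (1.32%) passed higher in XinWX at all 3 stages.

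The normalization changed the ARF7 ratio little on 8 of the 9 arrays and by much on the remaining one. The loess step moved it by between -0.14 and 0.09 on those 8, and by -1.11 on replicate 3 of 1 DPA. There the ratio of the background-subtracted intensities was 5.46-fold, against 2.05-fold and 1.78-fold on replicates 1 and 2 of the same stage, and after loess the log2 ratio was 1.14, against 1.08 and 0.70. On that array the 29 probe spots around the ARF7 spot, within 3 rows and columns of it, had a median normalized log2 ratio of 0.33, and on the other arrays such spots had medians between -0.23 and 0.11. The part of this neighborhood in the ARF7 ratio was not tested. Without replicate 3 of 1 DPA the ARF7 ratio at 1 DPA was 0.89 and passed the FDR (adjusted p = 0.000505 in limma).

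Whether the difference between the lines itself changed with the stage was tested as a contrast of stages in the same fit. From 0 to 1 DPA the ARF7 log2 ratio rose by 0.68 (standard error 0.17, interval 0.31 to 1.04, adjusted p = 0.0268 in limma). The ratio change passed the FDR for 8.22% of 21071 probes tested, and for 4.71% the ratio was higher at 1 DPA. This call was close to the threshold. It was lost without replicate 1 (0.66, adjusted p = 0.106), replicate 2 (0.74, adjusted p = 0.065) or replicate 3 (0.63, adjusted p = 0.0704) of 0 DPA and without replicate 1 of 1 DPA (0.62, adjusted p = 0.0806), and when the swapped array was first averaged with replicate 1 (0.74, adjusted p = 0.2).

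From -1 to 0 DPA the ARF7 ratio had a change of -0.44 (standard error 0.17, interval -0.81 to -0.07), which did not pass (adjusted p = 0.149 in limma, with 6.68% of 22227 probes passing). Between -1 and 1 DPA the change was 0.24 (interval -0.13 to 0.60, adjusted p = 0.433, with 10.7% of 21229 probes passing). The estimates and the order of the arrays put 0 DPA lowest, but of these steps only that from 0 to 1 DPA passed the test.

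Within each line, the level of ARF7 was not shown to change between any stages. In XinWX the change was -0.30 from -1 to 0 DPA (adjusted p = 0.86 in limma's separate-channel analysis), 0.33 from 0 to 1 DPA (adjusted p = 0.62) and 0.03 from -1 to 1 DPA (adjusted p = 0.97). In XinFLM it was 0.14, -0.34 and -0.20 over the same intervals (adjusted p = 0.965, 0.564 and 0.71). The standard error of each was 0.31 on the log2 scale, and the 95% interval of the XinWX change from -1 to 1 DPA, for instance, ran from -0.61 to 0.67, so that moderate changes were not detectable with these arrays. The shares of probes passing the FDR over these intervals were 0.436%, 0.266% and 2.28% in XinWX and 0.724%, 3.1% and 12.4% in XinFLM. Without replicate 1 of 1 DPA the changes in XinWX up to 1 DPA were -0.03 from 0 DPA and -0.33 from -1 DPA, and without replicate 3 of -1 DPA the change from -1 to 1 DPA had -0.02. Without replicate 3 of 1 DPA those in XinFLM were 0.09 from 0 DPA and 0.23 from -1 DPA, so that single arrays decided the sign of the stage changes that end at 1 DPA.

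Of 18 probes paired with a gene name here, 3 were auxin-related, namely ARF7 and the GH3 family probes 28K_086_B03 and 28K_236_A10. The study grouped the GH3 probes with its jasmonic acid genes. By real-time PCR it reports 28K_236_A10 as significantly higher in XinWX between -1 and 1 DPA. For 28K_086_B03, its exception among these genes, it names a significant difference at 1 DPA. The array values below are therefore not matched at every stage by that measurement. On the arrays both GH3 probes were, like ARF7, higher in XinWX on 9 of 9. GH3 28K_086_B03 had background-subtracted intensities of 13144, 14904 and 8054 units in XinWX, against 4167, 4757 and 2385 units in XinFLM, on replicates 1, 2 and 3 of -1 DPA. At 0 DPA it had 6424, 7682 and 5908 units in XinWX, against 4201, 5406 and 3473 units in XinFLM, and at 1 DPA 6191, 9834 and 9404 units in XinWX, against 2551, 2689 and 2392 units in XinFLM. The lines did not overlap at any stage for this probe. Its log2 ratios were 1.64 ± 0.15, 0.68 ± 0.14 and 1.39 ± 0.36 at -1, 0 and 1 DPA (SD, n = 3 arrays each, adjusted p = 3.88e-06, 0.00834 and 7.97e-06 in limma), which is 3.11-fold at -1 DPA and 2.61-fold at 1 DPA. The ratio at 0 DPA did not pass without replicate 1 (0.66, adjusted p = 0.0804) or replicate 3 (0.61, adjusted p = 0.0621) of that stage.

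The ratio of GH3 28K_086_B03 fell by 0.96 from -1 to 0 DPA (adjusted p = 0.0104 in limma) and rose by 0.71 from 0 to 1 DPA (adjusted p = 0.0427, or 0.06 with the replicate number as a block). The first of these missed the threshold in 3 of 24 alternative settings (highest adjusted p = 0.107), among them the one without replicate 2 of 0 DPA (-0.88, adjusted p = 0.0588). The second was past the threshold in only 8 of 24 alternative settings. Leaving out 1 array gave values of 0.51 to 0.87 with adjusted p of 0.011 to 0.174, and only without replicate 3 of -1 DPA or replicate 3 of 1 DPA did it pass. Like ARF7, this probe had its smallest estimate at 0 DPA, and whether the stage changes of both probes differ in size was not tested.

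The intensity of GH3 28K_236_A10 came closer to the limit of 400 units. At -1 DPA it had 3144, 2642 and 1307 units in XinWX, against 1335, 1220 and 583 units in XinFLM, and at 0 DPA 1721, 1384 and 1151 units in XinWX, against 1207, 1059 and 776.5 units in XinFLM. At 1 DPA it had 742, 869 and 1200 units in XinWX, against 391, 155 and 376 units in XinFLM, where all 3 arrays were under 400 units. Its log2 ratio was 1.06 ± 0.09 at -1 DPA (2.09-fold, adjusted p = 0.000758 in limma) and 0.45 ± 0.07 at 0 DPA (adjusted p = 0.154). At 1 DPA it was 0.88 ± 0.64 as measured (adjusted p = 0.00276), with no fold given because XinFLM was faint, and it was 0.54 without replicate 2 of that stage (adjusted p = 0.0267). In the fit to all 9 arrays no change of its ratio between stages passed (-0.61, 0.43 and -0.18 from -1 to 0, 0 to 1 and -1 to 1 DPA, adjusted p = 0.172, 0.34 and 0.705). Without replicate 3 of 1 DPA the change from 0 to 1 DPA was 0.72 and passed (adjusted p = 0.0481) and that from -1 to 1 DPA was 0.11. Without replicate 2 of 1 DPA these changes were 0.0889 (adjusted p = 0.832) and -0.52 (adjusted p = 0.118). The ratio at 0 DPA passed in 5 of 24 alternative settings (lowest adjusted p = 0.0226), among them the one without replicate 2 of 1 DPA (0.45, adjusted p = 0.0433), and the change from -1 to 0 DPA passed in 3 (lowest adjusted p = 0.0221).

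**Figure D4:**
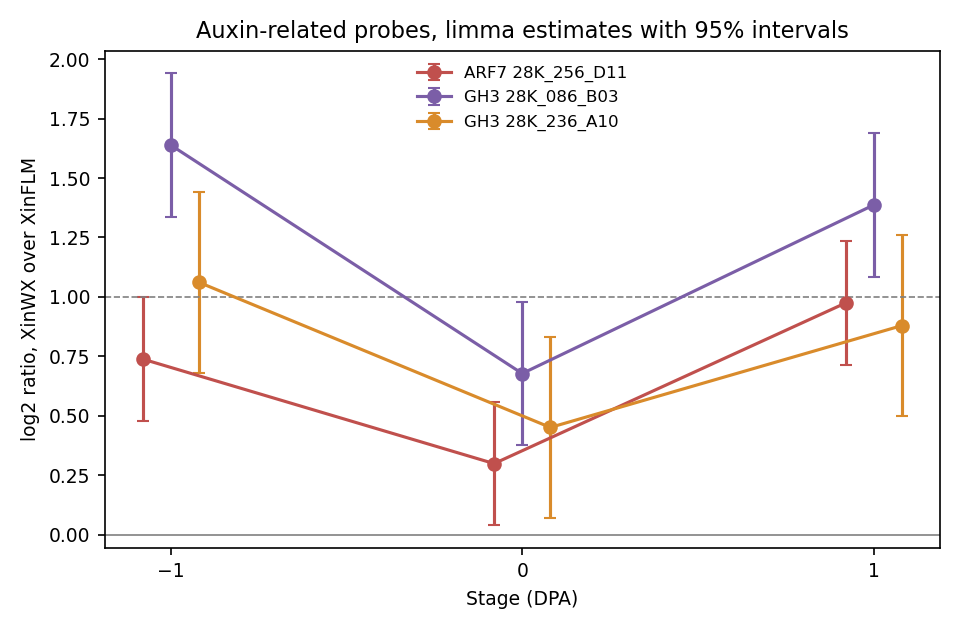
Limma estimates of the log2 ratio of XinWX over XinFLM with 95% intervals at -1, 0 and 1 DPA for ARF7 (red), GH3 28K_086_B03 (purple) and GH3 28K_236_A10 (orange), with the dashed line at a fold change of 2 and points shifted sideways for legibility. All 9 estimates are above 0 and each probe has its lowest estimate at 0 DPA (0.30, 0.68 and 0.45). The value of GH3 28K_236_A10 at 1 DPA rests on XinFLM spots under 400 units.

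Of the 17 named probes other than ARF7, 7 passed the FDR in limma with a higher level in XinWX at -1 DPA and 5 with a lower one. At 0 DPA 5 were higher and 4 lower, and at 1 DPA 6 were higher and 3 lower. Among all probes tested, 12.9%, 3.5% and 12.1% passed higher in XinWX at -1, 0 and 1 DPA, and 24.8%, 7.69% and 24.3% in either direction. The median log2 ratios of the 17 were 0.09, 0.15 and 0.24 at -1, 0 and 1 DPA, beside -0.00433, -0.00575 and -0.00628 over all probes tested. The study picked these probes on the same samples, so that they are no independent evidence of a direction. It took 28K_001_D11, 28K_118_C05, 28K_141_D12 and 28K_206_B07 as genes without a difference between the lines. Of these, the nuclear pore probe 28K_141_D12 passed the FDR in limma at -1 DPA (0.48, adjusted p = 0.0101) and 0 DPA (0.45, adjusted p = 0.0364), higher in XinWX. It was 1.40-fold and 1.36-fold higher there, under the fold change of 2 that the study's call also needs, so both calls can hold. It did not pass at 1 DPA, and the others passed at no stage. At 0 DPA the total of 9 ranged from 3 to 11 with single arrays left out, and up to 13 over all alternative settings. It was 3 without replicate 1 of that stage and 4 without its replicate 2 or 3. The lipid transfer protein 28K_179_F11, of a family that carries lipids to the cell surface and is abundant in young fibers, can mark fiber-forming epidermal cells, and its log2 ratios went the other way, with -0.54 ± 0.02, -1.43 ± 0.31 and -2.73 ± 0.13 at -1, 0 and 1 DPA. It had 2278 to 5496 units in XinWX, against 6306 to 24331 units in XinFLM, and was thus measured in both lines at each stage. Its ratio at -1 DPA missed the FDR in 2 of 24 alternative settings (highest adjusted p = 0.0795 in limma), among them the one without replicate 1 of that stage (-0.52, adjusted p = 0.0555). The probe 28K_233_A03 of benzoquinone reductase was likewise lower in XinWX at 0 DPA (log2 ratio -0.90 ± 0.18, adjusted p = 0.00112 in limma) and at 1 DPA (-1.91 ± 0.31, adjusted p = 3.06e-07), and its ratio of 0.09 ± 0.23 at -1 DPA did not pass (adjusted p = 0.684). Because whole ovules were sampled, fewer cells of a type and less RNA per cell cannot be told apart, and the part of the cell makeup in the ARF7 ratio was not tested.

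By the Pearson correlation of the normalized log2 intensity over the 18 channels of the 9 arrays, the probes most like ARF7 among 18149 others were 28K_153_A11 (r = 0.93) and 28K_280_G06 (r = 0.91), for which no gene name was used here. These are descriptions with no test, and both channels of an array share its brightness. Over the 6 group means their r was 0.93 and 0.94, and over the 9 ratios 0.96 and 0.63. 28K_153_A11 had log2 ratios of 0.40, 0.35 and 0.37 at -1 DPA, 0.11, 0.15 and 0.03 at 0 DPA, and 0.60, 0.52 and 0.66 at 1 DPA, thus with the same order of stages as ARF7 and smaller values. The probes least like it were 28K_272_E10 (r = -0.90) and 28K_106_E09 (r = -0.89), with log2 ratios of -0.45, -0.17 and -0.80 and of -0.94, -0.24 and -0.85 at -1, 0 and 1 DPA, which were smallest in size at 0 DPA as well. All these probes were picked by their correlation with ARF7 in the same data, so that their course over the stages is no separate evidence.

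Over all 18149 probes the median r with ARF7 was -0.01, and 3 probes reached 0.9. GH3 28K_086_B03 had r = 0.71 over the 18 channels, above 98.6% of probes, and 0.97 over the 6 group means. GH3 28K_236_A10 had 0.38 over the 18 channels and 0.73 over the group means. Of the other named probes, the methionine synthesis enzyme cystathionine gamma-synthase (28K_167_D03) had 0.54, and BAK1 28K_164_D07, a co-receptor kinase of brassinosteroid signaling, had -0.53.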

How the data were processed

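The members and lists were chosen with earlier results of these data known. The probe was matched by its name in the scanner files. By the rule for features to be given, these were ARF7, the other probes that the study pairs with a gene, and, by ID only, the 2 probes highest and the 2 lowest in correlation with ARF7. The deposited scanner files give spot and local background intensity in Cy5 and Cy3 and a flag score, as the authors' LuxScan system wrote them, not normalized. A table deposited by the authors gives log2 ratios of Cy5 over Cy3, normalized within arrays, with the swap not turned (limma 3.4.5 and R 2.12.2 by the submitters' processing notes). It served as an alternative, with medians of -0.0115 to 0.00949 per array and r = 0.944 to 0.998 against the ratios computed here.

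Intensities were corrected with normexp (offset 50) in limma 3.58.1 (R 4.3.3, statmod 1.5.0), and figures were drawn under Python 3.11.15 with matplotlib 3.10.9. Spots under 400 units in both channels were removed (18.2% to 29.6% per array), and ratios were normalized by loess (span 0.3, 4 iterations). A linear model with 1 coefficient per stage was fitted to all 9 arrays. A probe was tested at a stage if 2 or 3 of its arrays retained it, with Benjamini-Hochberg adjustment. Levels and changes within a line came from Aquantile normalization and limma's separate-channel analysis (intraspot correlation 0.781). Ratios of same-numbered arrays of -1 and 0 DPA deviated together (r = 0.140, 0.257 and 0.128), a pairing that rests on the data alone. The alternatives covered background, filter, normalization, dye, replicate block, averaging of the swapped array, arrays left out and the authors' ratios. The number of arrays limits the precision.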

Additional observations from a re-analysis of the deposited data

Results flagged for a closer look

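The difference between XinWX and XinFLM in the ARF7 probe changed between stages by the test of the change itself, with a log2 ratio higher by 0.68 at 1 DPA than at 0 DPA (adjusted p = 0.0268 in limma, 3 arrays per stage, XinWX higher on 3 of 3 arrays at both). That call missed the threshold in 8 of 24 alternative settings. With the swapped array first averaged with replicate 1, it had an adjusted p of 0.2 in limma. The GH3 probe 28K_086_B03 met the same criterion at both steps. Its log2 ratio changed by -0.96 from -1 to 0 DPA (adjusted p = 0.0104) and by 0.71 from 0 to 1 DPA (adjusted p = 0.0427). The first change missed the threshold in 3 of 24 alternative settings. The second missed it in 16 of 24, the replicate block included (adjusted p = 0.06).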

How the results depend on the processing

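The ARF7 ratios at -1 and 1 DPA kept their direction and passed the FDR in 24 of 24 alternative settings (0.69 to 0.75 and 0.84 to 1.11), of which 5 reached a fold change of 2 at 1 DPA. The ratio at 0 DPA was 0.24 to 0.37 and passed only with scale normalization between arrays (0.37), where 4024 of 22654 probes passed. The mean over 9 arrays was 0.61 to 0.73 in 20 settings, with p of 0.00391 to 0.0312 in the sign-flip test. The smallest p that this test can give rises when fewer values enter. The range of p is therefore no measure of how the result depends on the processing. The change from 0 to 1 DPA was positive throughout and missed the threshold in 8 of 24 settings, namely without a filter on faint spots (0.68, adjusted p = 0.0605), with scale normalization (0.46, adjusted p = 0.117), with only the arrays of both stages (0.68, adjusted p = 0.0508), after averaging of replicate 1 with the swapped array (0.74, adjusted p = 0.2) and without 4 of the 9 arrays in turn (0.59 to 0.81 over all 9, adjusted p = 0.0155 to 0.106). The cause was not tested, except that fewer arrays enter the last ones. The changes from -1 to 0 and -1 to 1 DPA passed in none. With single arrays left out, the XinWX change ranged from -0.028 to 0.68 between 0 and 1 DPA and from -0.33 to 0.38 between -1 and 1 DPA, where averaging replicate 1 with the swap gave -0.11. The XinFLM change ranged from -0.65 to 0.0909 and from -0.51 to 0.23 over the same intervals. For GH3 28K_236_A10 the ratio change from -1 to 1 DPA was 0.0357 with the authors' log2 ratios and -0.52 to 0.11 with single arrays left out. With the replicate number as a block, ARF7 had an adjusted p of 0.00144, 0.171 and 0.000212 at -1, 0 and 1 DPA for the same ratios of 0.74, 0.30 and 0.97, and the change of 0.68 from 0 to 1 DPA had 0.0356. The block changed no ARF7 call, and of the GH3 calls it ended that of 28K_086_B03 from 0 to 1 DPA (0.71, adjusted p = 0.06). Stage pairs other than -1 and 0 DPA showed no pairing of numbers (r of -0.06 to 0.08 in the log ratio).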
